A study of Mus musculus with 2 samples.

Results

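Distal open-chromatin peaks in the later introns of protein-coding genes were examined in mouse thymus. Later introns are those numbered 2 or higher, counted from the transcription start site (TSS) of the longest protein-coding transcript of each gene in the GENCODE M21 basic annotation (mm10). A member is a replicate 1 peak on chromosomes 1 to 19 that shared at least 1 bp with a replicate 2 peak. Its midpoint lay over 500 bp from every protein-coding TSS, outside all protein-coding exons, in a later intron and in no intron 1. There were 16009 members among 71238 shared peaks, or 28.8% of the shared peaks away from TSSs.

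Accessibility was measured by DNase-seq, in which DNase I cuts open DNA in nuclei and the cut ends are sequenced. Whole thymus came from B6CASTF1/J mice, hybrids of C57BL/6J and CAST/EiJ. There were 2 animals, both female and 14 days old. They form a single untreated group with no control. The labels call them biological replicates with different animal numbers under 1 donor identifier. Promoters of 11 of 11 thymocyte markers were open in both replicates, against 0 of 3 B cell, 2 of 3 myeloid, 1 of 3 epithelial and 2 of 3 endothelial and mesenchymal markers, and the 1 erythroid marker on chromosomes 1 to 19 was not open. In a whole organ, fewer cells of a type and less open DNA per cell cannot be told apart. With 2 animals an exact sign-flip permutation test cannot go below a two-sided p of 0.5, so differences are given as the value in each replicate. Intervals are 95% Wilson intervals of shares and cover counting error only.

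Introns carry many of the enhancers that act on their own gene or on neighbours, and an intronic DNase I peak marks a place where nucleosomes have given way to bound proteins. Within a peak, footprints are short stretches that are cut less than their flanks, as where a protein covers the DNA. In thymocytes such elements are bound by RUNX, ETS, TCF/LEF, GATA and E proteins. CTCF, a zinc finger protein that anchors chromatin loops, binds many of the remaining sites.

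Sequences of 9 members are shown first, from 2 groups that the results describe, members of T lineage genes and members with a CTCF match. The groups are not exclusive. The first 6 are the members ranked highest in each of the 6 genes of T lineage lists with the most members (Cd8b1 ties with Bach2 at 11 and is not shown). The last 3 are the members ranked highest among those with a match to the CTCF consensus that a footprint of each replicate touches. Each is the replicate 1 peak, from the GRCm38 assembly, plus strand, 5′ to 3′. Capitals mark bases inside a footprint in both replicates.
Runx1, intron 2, chr16:92698721-92698920: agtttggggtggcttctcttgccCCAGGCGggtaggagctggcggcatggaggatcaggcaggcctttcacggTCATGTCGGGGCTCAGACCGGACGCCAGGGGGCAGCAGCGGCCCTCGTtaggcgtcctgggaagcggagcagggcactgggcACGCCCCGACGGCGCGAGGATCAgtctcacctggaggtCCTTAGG
Tcf7, intron 2, chr11:52275441-52275700: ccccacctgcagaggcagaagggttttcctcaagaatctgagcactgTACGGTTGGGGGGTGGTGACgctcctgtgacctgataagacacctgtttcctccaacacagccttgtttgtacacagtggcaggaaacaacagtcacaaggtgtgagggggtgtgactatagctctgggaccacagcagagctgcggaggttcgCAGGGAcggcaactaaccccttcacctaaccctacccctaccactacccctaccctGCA
Fyn, intron 3, chr10:39502381-39502580: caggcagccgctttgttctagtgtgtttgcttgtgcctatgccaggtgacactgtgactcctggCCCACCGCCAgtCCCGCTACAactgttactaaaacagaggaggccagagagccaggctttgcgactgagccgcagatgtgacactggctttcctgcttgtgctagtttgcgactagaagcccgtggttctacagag
Lef1, intron 11, chr3:131208581-131208780: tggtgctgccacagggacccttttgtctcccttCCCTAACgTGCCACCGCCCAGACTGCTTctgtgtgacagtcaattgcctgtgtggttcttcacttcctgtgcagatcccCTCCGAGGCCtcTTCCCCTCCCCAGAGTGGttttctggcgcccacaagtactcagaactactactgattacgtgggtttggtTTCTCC
Ikzf1, intron 3, chr11:11726221-11726480: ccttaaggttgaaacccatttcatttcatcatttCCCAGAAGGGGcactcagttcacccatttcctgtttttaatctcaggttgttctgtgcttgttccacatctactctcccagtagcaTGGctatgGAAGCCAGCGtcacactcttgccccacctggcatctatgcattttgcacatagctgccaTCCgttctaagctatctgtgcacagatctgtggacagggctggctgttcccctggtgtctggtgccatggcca
Bach2, intron 4, chr4:32560361-32560540: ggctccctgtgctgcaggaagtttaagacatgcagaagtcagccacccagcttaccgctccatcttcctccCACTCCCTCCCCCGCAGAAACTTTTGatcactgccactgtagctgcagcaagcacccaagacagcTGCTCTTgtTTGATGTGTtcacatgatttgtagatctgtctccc
Fbxl18, intron 4, chr5:142877461-142877640: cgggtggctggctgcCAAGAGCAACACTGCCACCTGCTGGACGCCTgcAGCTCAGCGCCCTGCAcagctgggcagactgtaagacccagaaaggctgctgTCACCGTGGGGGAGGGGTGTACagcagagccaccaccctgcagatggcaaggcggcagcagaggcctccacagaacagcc
Fam53b, intron 3, chr7:132735261-132735460: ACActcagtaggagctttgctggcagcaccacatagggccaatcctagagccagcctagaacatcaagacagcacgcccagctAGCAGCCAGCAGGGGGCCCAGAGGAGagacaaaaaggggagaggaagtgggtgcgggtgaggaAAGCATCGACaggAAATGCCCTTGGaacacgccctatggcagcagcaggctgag
Dad1, intron 2, chr14:54239081-54239300: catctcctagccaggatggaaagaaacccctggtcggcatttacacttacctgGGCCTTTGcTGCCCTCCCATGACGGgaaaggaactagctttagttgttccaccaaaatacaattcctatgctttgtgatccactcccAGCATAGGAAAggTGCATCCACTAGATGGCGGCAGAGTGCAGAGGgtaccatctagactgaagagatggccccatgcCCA

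The Runx1 member had 85 of its 200 bases inside footprints of both replicates, in 4 runs. The Tcf7 member had 29 of 260 and the Fyn member 19 of 200. The CTCF match covered bases 159 to 170 of Dad1, 29 to 40 of Fbxl18 and 89 to 100 of Fam53b. These members were chosen for a footprint of each replicate touching the match. Footprints of both replicates touched 92.4% of all CTCF matches in members. Of the other strings, the ETS (bases 96 to 102) and RUNX (bases 84 to 90) strings of Lef1 had no base in capitals, nor did the ETS string of Bach2, the Ikaros string of Runx1 or the E-box of Fbxl18. The Ikaros string of Ikzf1 (bases 33 to 38) had 4 of 6 bases in capitals and the E-box of Bach2 (bases 133 to 138) 2 of 6. Every 32-base word of these 9 members occurred once in the assembled chromosomes 1 to 19, X and Y.

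Later introns held fewer peaks per length than first introns and more than intergenic DNA. Counting each replicate's own peaks, later introns had 32.7 per Mb in replicate 1 and 38.1 in replicate 2, first introns 58.1 and 69.5, and intergenic DNA 25.1 and 28.9. The ratio of later to first introns was 0.563 in replicate 1 and 0.547 in replicate 2, and that of later introns to intergenic DNA was 1.30 and 1.32. Both replicates thus gave the same order. For shared peaks the densities were 24.8, 43.0 and 18.1 per Mb, over 645.6 Mb, 227.6 Mb and 1431 Mb.

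The gap to first introns was widest close to a TSS. Between 500 and 1000 bp from the nearest protein-coding TSS the density of shared peaks in later introns was 0.577 times that in first introns, and between 2 and 5 kb it was 0.765 times. From 5 to 10 kb the ratio was 0.983 (0.917 in replicate 1 and 0.962 in replicate 2, from own peaks), and from 10 to 20 kb it was 0.941. From 20 to 50 kb it was 1.10 and from 50 to 100 kb 1.21, with both replicates above 1. Thus later introns were the sparser class near gene starts and the denser class far from them. The 2 classes fill these distances unequally, since 22.5% of the first-intron peaks but 2.88% of the members lay within 1000 bp of a TSS. Against intergenic DNA the ratio for shared peaks ran from 0.876 to 1.06 in every bin up to 100 kb (0.778 and 0.705 from own peaks between 500 and 1000 bp), and beyond 100 kb it was 1.81 (1.56 in replicate 1 and 1.60 in replicate 2).

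**Figure D1:**
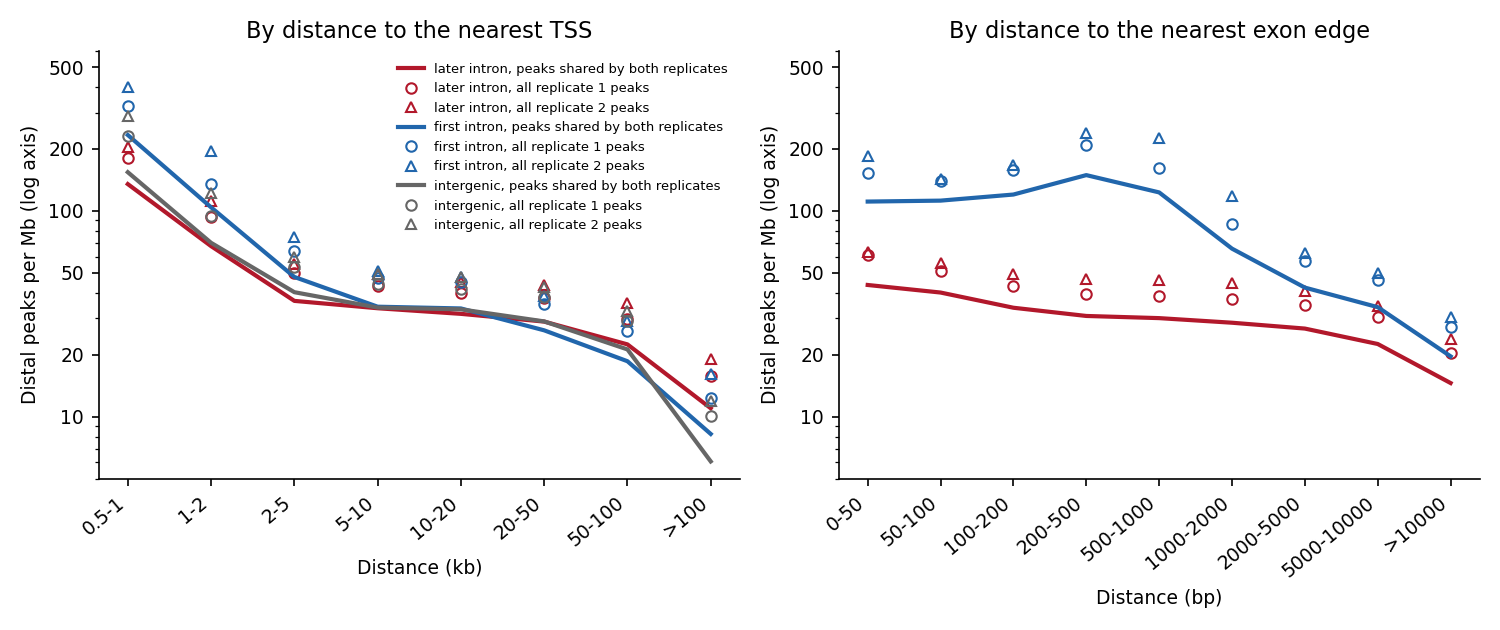
Distal peaks per Mb (log axis) in later introns, first introns and intergenic DNA, by distance to the nearest protein-coding TSS (left, kb) and in both intron classes to the nearest protein-coding exon edge (right, bp). Lines give peaks shared by both replicates, circles and triangles all peaks of replicates 1 and 2. Later introns lie below first introns near a TSS and above them from 20 kb outwards (1.10 to 1.33 times for shared peaks), and members thin out from 43.7 per Mb at exon edges to 14.6 beyond 10 kb.

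Within later introns, members were densest at exon edges. Within 50 bp of a protein-coding exon edge there were 43.7 members per Mb, between 500 and 1000 bp 30.1, and beyond 10 kb 14.6. Own peaks gave 61.1 and 62.9 per Mb within 50 bp in replicates 1 and 2, and 20.5 and 23.8 beyond 10 kb. Short introns were likewise dense, with 45.0 members per Mb in introns under 1 kb, 27.9 in those of 5 to 20 kb and 10.4 in those of 100 kb or longer. By number, intron 2 had 27.3 members per Mb, intron 5 had 22.9 and introns 21 or higher had 19.8. Intron number, intron length and distance from the TSS vary together, and their separate parts were not tested. Among chromosomes, the density was highest on chromosome 11 (39.5 per Mb) and lowest on chromosome 18 (18.4 per Mb).

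Strength is the signal value the authors deposited for a peak, on a scale of its own in each library, so it was compared within a replicate. Members had a median strength of 0.893 in replicate 1 and 0.898 in replicate 2, first-intron peaks 0.940 and 0.852, and intergenic peaks 0.909 and 0.927. The log2 difference from first-intron peaks was -0.07 in replicate 1 and 0.08 in replicate 2, so its sign was not the same in both animals. Against intergenic peaks it was -0.02 and -0.05, and it became 0.09 in each replicate when all peaks of that replicate were used rather than shared ones. Across members the strengths of the replicates had a Spearman correlation of 0.698 (Pearson 0.707 on log2 values, across peaks of the same 2 libraries), against 0.797 for first-intron peaks.

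Members were narrower than first-intron peaks and close to intergenic peaks in width. Their median width was 183 bp in replicate 1 and 200 bp in replicate 2, against 200 bp and 240 bp in first introns and 187 bp and 200 bp in intergenic DNA. The median ratio of observed to expected CpG was 0.220, and 5.10% of members exceeded 0.6, a level typical of CpG islands. In first introns 16.5% did, and in intergenic peaks 11.5%. The gap to first introns depended on distance from a TSS. From 500 to 2000 bp, 21.3% of members and 34.3% of first-intron peaks exceeded 0.6. From 5000 to 20000 bp the shares were 3.85% and 4.26%. From 20000 to 100000 bp the direction turned (3.93% and 3.12%), and beyond 100000 bp they were 3.27% and 3.09% (194 first-intron peaks). Intergenic peaks had a higher share than members in each of these bins (24.8%, 11.6%, 9.97% and 7.11%). Median GC content was 52.0% in members and in intergenic peaks and 53.4% in first-intron peaks. At the 500 bp limit of the definition, the 96 members 500 to 600 bp from a TSS had median strengths of 1.37 and 1.12 in replicates 1 and 2, and the 87 later-intron peaks at 400 to 500 bp, which are not members, had 1.08 and 0.973.

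Of the later-intron peaks of replicate 1, 75.7% (75.1 to 76.3%) were shared, against 74.0% (73.2 to 74.7%) in first introns and 72.1% (71.6 to 72.5%) in intergenic DNA. Sharing rose with strength, from 27.6% in the weakest decile of replicate 1 strengths to 99.9% in the strongest. A peak of the stricter deposited list lay in both replicates at 65.99% of members, beside 66.4% of all shared distal peaks. For 1084 members (6.77%) the overlapping replicate 2 peak also overlapped another member, so their replicate 2 strengths repeat.

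A footprint of each replicate, overlapping by at least 1 bp, lay in 69.3% of members, beside 66.4% of all shared distal peaks and 56.02% of first-intron peaks. Intergenic peaks had the same share as members to 3 digits (69.3%). Members held a mean of 2.47 footprints in replicate 1 and 3.001 in replicate 2. None was found in 7.95% and 9.61% of them, against 13.9% and 19.1% of first-intron peaks. At matched distance the gap to first introns was 56.6% against 42.3% between 500 and 2000 bp from a TSS and 75.2% against 65.9% between 5 and 20 kb, and beyond 100 kb it had the other sign (61.6% against 64.9%, the latter of 194 peaks).

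Members were spread over many genes and piled up in a few. Of 17094 genes with a later intron, 5888 (34.4%) held at least 1 member, and 2957 of these held exactly 1. At the other end, 252 genes with 10 or more members were 4.28% of the genes with a member and held 23.8% of the members. The median distance from a member to the next was 5222 bp, and 26.2% had another within 1 kb. Genes whose promoter was open in both replicates had 29.9 members per Mb of later intron, the others 14.0. That difference held in each distance bin, for example 34.4 against 27.0 per Mb between 5 and 20 kb from a TSS and 16.5 against 3.22 beyond 100 kb.

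The genes with the most members were mostly very long. Fgfr2, a growth factor receptor gene whose model here spans neighbours such as Fam53b, had 75 members in 2507 kb of later intron, from 90 own peaks in replicate 1 and 118 in replicate 2. Wwox, an oxidoreductase gene at a fragile site, had 41 and Foxp1, a forkhead factor gene with a role in T cell quiescence, had 40. Tbc1d22a (38), the chromatin remodeller gene Arid1b (36), the spindle checkpoint gene Mad1l1 (36), Clec16a (35), Pakap (35), Gm37240 (31), Ldlrad3 (31), Lpp (29) and Zfhx3 (29) followed. In this group of 12, the density ran from 2.62 per 100 kb in Gm37240 to 19.8 in Clec16a, beside 2.49 over all genes pooled.

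Ranked by density instead, T cell genes took the first places but not the later ones. Among genes with at least 5 members and 10 kb of later intron, Cd8b1, a chain of the CD8 coreceptor, was densest with 108.5 members per 100 kb. It was followed by Cd2, an adhesion receptor gene of T cells, with 92.8, and by Tcf7, which encodes the T lineage factor TCF1, with 69.4. Cd8b1 (10.1 kb) and Cd2 (10.8 kb) barely passed the length limit. Genes below the limits could be denser, such as Gapdh, with 4 members in 2.26 kb (177.0 per 100 kb). Some neighbouring members of Cd8b1 and of Tcf7 shared a replicate 2 peak. Own peaks in replicates 1 and 2 were 14 and 12 in Cd8b1, 15 and 13 in Cd2, and 21 and 41 in Tcf7. A peak of the stricter list lay in both replicates at 6 of 11 Cd8b1, 8 of 10 Cd2 and 7 of 19 Tcf7 members. The next 7 were Pptc7 (66.4), Rab37 (64.0), the heme-responsive repressor gene Bach1 (57.1), the retinoic acid receptor gene Rara (53.9), Ubxn11 (52.9), Tspan32 (50.2) and Gm7030 (49.6).

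The lists of T lineage genes were described by counts. Of their 91 genes with a later intron, 69 (75.8%) held a member, beside 34.4% of all genes, and 45 of 135 genes (33.3%) of 10 lists of other kinds did. Among all genes whose promoter was open in both replicates, 40.9% did. Median later-intron length was 23.7 kb in T lineage genes, 12.4 kb in all genes and 10.4 kb in the other lists, and a longer gene has more room for a member. Pooled, the T lineage genes had 7.12 members per 100 kb (median over genes 5.72), the other lists 1.69 (median 0) and all genes 2.49 (median 0). Pooled, shared peaks were denser in T lineage genes than in all later introns in each bin of distance from a TSS, with 562 against 86.697 members per Mb from 500 to 2000 bp, 115 against 32.4 from 5 to 20 kb, 59.1 against 26.2 from 20 to 100 kb, and 13.9 against 10.99 beyond 100 kb. The last value rests on 10 members, and own peaks there gave 16.7 against 15.7 per Mb in replicate 1 and 18.11 against 19.003 in replicate 2, so the direction was not the same in both. Most T lineage genes had an open promoter (89 of 91). All genes with an open promoter had 115.5, 34.4, 30.1 and 16.5 members per Mb in these bins. Beyond 100 kb the T lineage genes were thus below them. Own peaks of open-promoter genes there were 22.6 per Mb in replicate 1 and 26.5 in replicate 2, again above T lineage genes. The lists were compiled with results of these data known, so their counts are no independent evidence.

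The T cell receptor complex and its coreceptors had the highest pooled density, 36.2 members per 100 kb, and a member in 6 of 8 genes. The median over these genes was 22.4, but 4.15 with the stricter peak list and 4.48 without peaks near starts of the comprehensive set. Under those settings it was below the medians of migration genes (7.90 and 5.04) and lineage transcription factors (5.32 and 9.74). Cd8b1 had 11 and the CD3 chain gene Cd3e 3, while Cd247, Cd3d, Cd4 and Cd8a had 1 each. Without Cd8b1, 7 of the 18 members are left. The Cd8b1 members lay 4055 to 11273 bp from its TSS in introns 2 to 4. Their strengths ran from 0.525 (lowest) over 1.14 (median) to 6.16 in replicate 1, and from 0.691 over 1.19 to 2.27 in replicate 2. The member 11273 bp from the TSS was the strongest of the 11 in both replicates.

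Lineage transcription factors held the most members of any T lineage list, 148 in 19 of 24 genes (9.08 per 100 kb). Runx1, a master regulator of blood and T cell development, had 27, of which 22 lay in intron 2. Their strengths ran from 0.374 over a median of 1.01 to 14.5 in replicate 1, and from 0.409 over 1.21 to 9.16 in replicate 2. In replicate 1 the member 84618 bp from the TSS was the strongest, and in replicate 2 the one at 127328 bp, whose sequence is given above. That member had 9.97 in replicate 1 and 9.16 in replicate 2, and lay 1493 bp from another annotated Runx1 start.

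Tcf7 had 19 members, 17 of them in intron 2. They ran from 0.608 over 1.21 to 12.7 in replicate 1 and from 0.507 over 1.27 to 3.68 in replicate 2, and the printed member 7000 bp from the TSS was the highest in both. That member lay 484 bp from a noncoding TSS, which the definition does not test. Lef1, which encodes a factor of the same TCF/LEF family as TCF1, had 16, from 0.587 over 1.37 to 9.35 and from 0.466 over 1.15 to 3.32. Its highest member was the printed one in replicate 1 (9.35 and 2.95) and the one 104560 bp from the TSS in replicate 2 (3.44 and 3.32). Ikzf1, the gene of Ikaros, had 14, from 0.483 over 1.82 to 5.82 and from 0.628 over 1.10 to 4.39. Of these, 3 including the printed one shared a single replicate 2 peak. Bach2, a repressor gene, had 11, led in both replicates by the printed member (10.5 and 2.73). Bcl11b (9), Nfatc1 (9), Gata3 (7) and Tcf12 (7) came next.

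**Figure D2:**
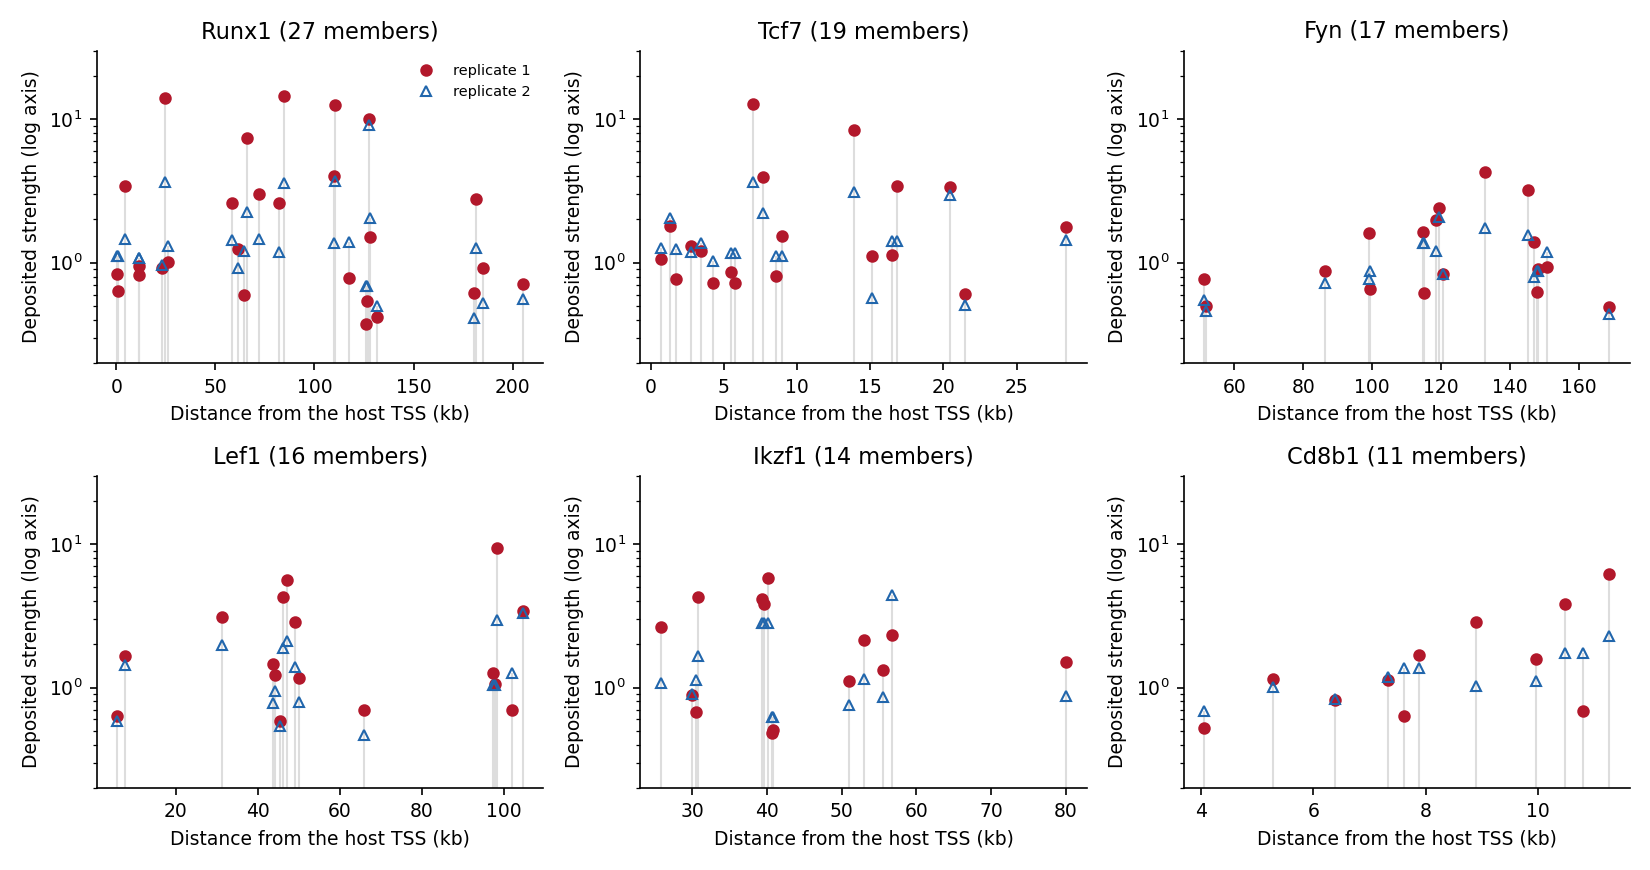
Every member of 6 T lineage genes, by distance from the TSS of the host transcript (kb) and deposited strength (log axis), in replicate 1 (filled circles) and replicate 2 (open triangles). Each gene holds a few strong members among weaker ones, and the strongest of Tcf7 and of Cd8b1 lead in both replicates.

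In T cell receptor signalling, 17 of 18 genes held a member (71 members). Fyn, a kinase that acts beside Lck, had 17 members, from 0.493 over 0.899 to 4.30 in replicate 1 and from 0.438 over 0.869 to 2.09 in replicate 2. The adaptor gene Skap1 had 10, the phospholipase gene Plcg1 8, and Lck 5 in far less intron (65.4 per 100 kb, against 10.3 for Fyn). Zap70, the kinase that docks on the activated receptor, had none. Among genes of Notch, cytokine and survival signalling, 6 of 9 had members (26). They were led by Bcl2l1, which encodes the survival protein BCL-XL, with 10, and by the kinase gene Jak1 with 9, while Dtx1, Notch1 and Notch3 had 2 each. One Bcl2l1 member, 15217 bp from the TSS, was the strongest there in both replicates (15.98 and 3.92).

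Surface and costimulatory receptors were uneven, with 30 members in 7 of 14 genes. Cd2 had 10, Ptprc (CD45) 8 and Cd226 4. Recombination genes had 14 members in 6 of 8 genes, 8 of them in Xrcc6, the gene of the KU70 end-joining protein, 2 in Dntt and 1 each in Dclre1c, Nhej1, Prkdc and Xrcc4. Migration genes had 20 in 8 of 10, with 4 each in Dock2 and Itgae. The T lineage genes with a later intron but no member were Zap70, Cd3g, Ptcra, Myb, Foxo1, Stat5b, Tcf3, Zbtb7b, Cd27, Cd28, Cd5, Cd6, Cd69, Ly9, Tigit, Rag2, Xrcc5, Il4ra, Il7r, Jak3, Arhgef1 and Ccr9. All 22 of them had a promoter open in both replicates, as did 89 of the 91 T lineage genes. Their later introns ran from 0.242 kb in Rag2 to 82.1 kb in Xrcc5. Rag2, Zbtb7b (0.349 kb) and Foxo1 (0.605 kb) had little room for a member, so its absence there says little. Some held own peaks that were not shared, such as Xrcc5 with 1 in each replicate and Cd27 with 2 in replicate 2.

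The share of genes with a member ran from 12.5% to 58.3% in the lists of other cell types and functions, and from 50% to 94.4% in the T lineage lists, so the ranges overlap. The counts were 3 of 18 cell cycle genes, 4 of 12 ubiquitous, 4 of 13 B cell, 5 of 15 myeloid and dendritic, 3 of 10 erythroid, 5 of 12 thymic epithelial, 6 of 14 endothelial and mesenchymal, 2 of 16 hepatocyte, 6 of 13 striated muscle and 7 of 12 neuronal genes. Density and count differed most for neuronal genes, whose 31 members lay in 4.08 Mb (0.760 per 100 kb), with Rbfox3 (14), Camk2a (7) and Nrxn3 (5) leading. Ubiquitous genes had 12.6 per 100 kb from 9 members, 4 of them in Gapdh, 3 in Ywhaz and 1 each in Sdha and Tubb5. Cell cycle members lay in Rrm2 (3), Mcm2 (2) and Ccne1 (1). Ebf1 led the B cell list (8), followed by Blk, Blnk and Pax5 (3 each), and Flt3 the myeloid list (8), followed by Itgam (2) and by Adgre1, Spi1 and Zbtb46 (1 each). Erythroid members lay in Ank1, Klf1 and Nfe2 (1 each), and thymic epithelial members in Foxn1 (2) and in Ctsl, Dll4, Epcam and Tbata (1 each). Vwf led the endothelial and mesenchymal list (8), followed by Pecam1 (6) and Acta2 (3), and Ryr1 the muscle list (6), followed by Tnnt2 and Ttn (2 each). The 2 hepatocyte members, in Apob and Cyp2e1, had strengths of 0.338 and 0.384 in replicate 1 and 0.656 and 0.322 in replicate 2.

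**Figure D3:**
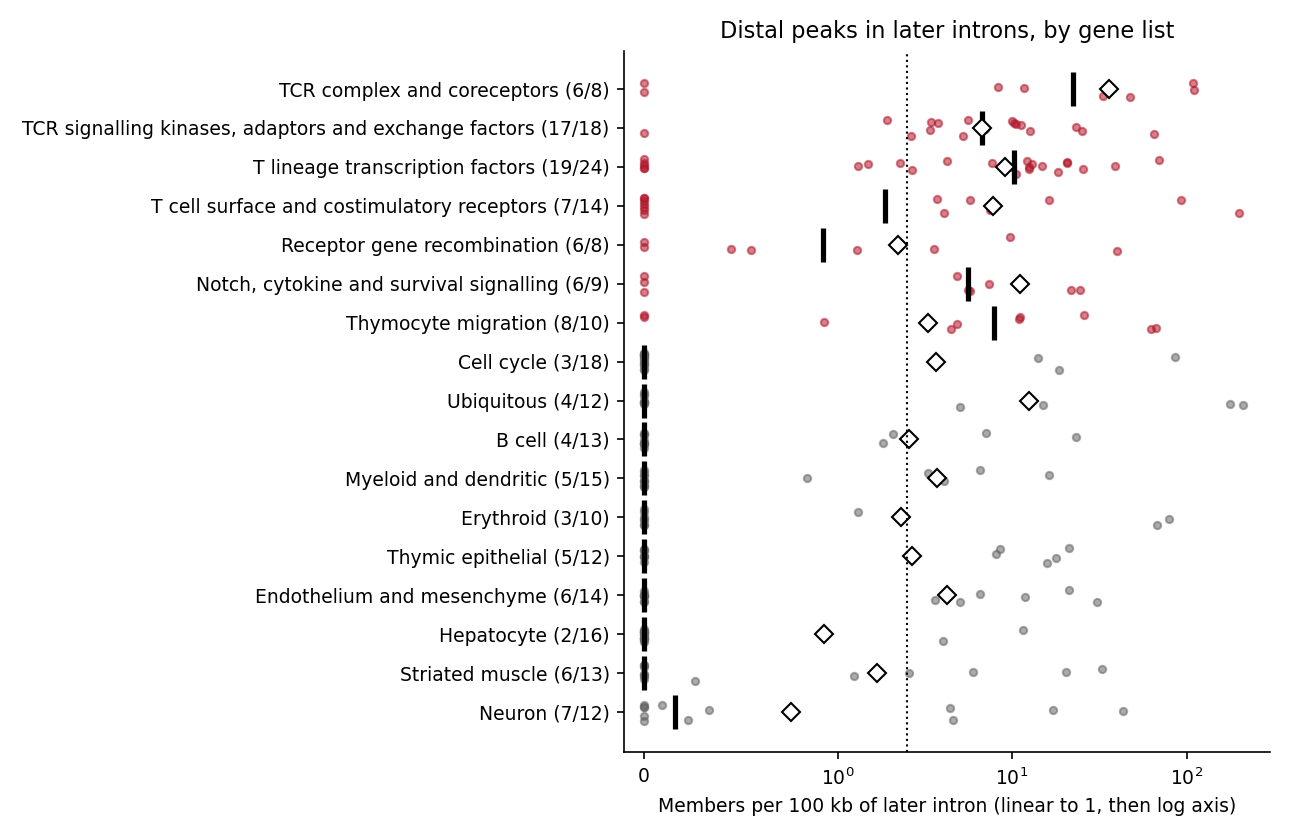
Members per 100 kb of later intron (linear to 1, then log axis) for each gene (dots), with the median over genes (bars) and the pooled value (diamonds) of each list. Red lists are of the T lineage, numbers in brackets give genes with a member and genes with a later intron, and the dotted line marks the pooled value of all genes (2.49).

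The members with the highest ranks were rich in CpG. Rank is the percentile of a peak's strength among all peaks of its replicate, averaged over the replicates. Of the top 10 members 80% had a CpG ratio over 0.6, of the top 100 35%, of the top 1000 11.1%, and of all members 5.10%. Starts of any transcript in the comprehensive GENCODE M21 set lay within 500 bp of 28% of the top 100, against 8.51% of all members, so some of them are annotated starts that the definition does not test. First was a member in intron 3 of the gene model Gm37240 at chr3:84814361-84814580, 797 bp from the TSS of Fbxw7, a ubiquitin ligase subunit gene, with 48.3 in replicate 1 and 13.2 in replicate 2. The next, in Chd2 at chr7:73537781-73538080, had 30.2 and 13.2 and lay 82 bp from a noncoding TSS.

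The third, in Gm10722 at chr9:3002041-3002220, had 26.8 and 16.2. It was wholly repeat-masked, and its 32-base words had a median of 35 copies in the assembly, so reads there cannot be placed with certainty. The others of the first 10 lay in Phf19, Carns1, Prdm2, Elf2, the importin gene Kpnb1, the phosphodiesterase gene Pde4d and Ppp1r9b, with 19.4 to 33.3 in replicate 1 and 6.36 to 11.3 in replicate 2. None of the first 10 had a CTCF match, against 12% of the first 100.

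The CTCF consensus was searched as a degenerate string of 12 letters within 100 bp of the midpoint, on both strands. It occurred in 1626 members, or 10.2% (9.70 to 10.6%), beside 8.82% of all shared distal peaks. First-intron peaks had 3.88% (3.52 to 4.28%) and intergenic peaks 10.1% (9.74 to 10.5%). Among each replicate's own peaks the shares were 7.81% and 8.72% in later introns, 2.94% and 3.30% in first introns, and 7.37% and 8.25% in intergenic DNA. Later introns therefore had over 2 times the share of first introns in both animals. Of 3023942 windows of 200 bp tiled over later introns outside peaks, 0.0479% held the string, and of the 650506 with a GC content of 48 to 56%, 0.0784%.

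The gap to first introns was seen at matched distances up to 100 kb. From 500 to 2000 bp from a TSS, 4.24% (3.18 to 5.65%) of members and 1.59% (1.24 to 2.04%) of first-intron peaks held the string. From 5 to 20 kb the shares were 12.2% (11.2 to 13.1%) and 5.15% (4.35 to 6.09%). From 20 to 100 kb they were 10.4% (9.69 to 11.1%) and 5.21% (4.25 to 6.36%). Beyond 100 kb, 7.84% (6.74 to 9.09%) of members and 9.79% (6.36 to 14.8%) of 194 first-intron peaks held it, with intervals that overlap.

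**Figure D4:**
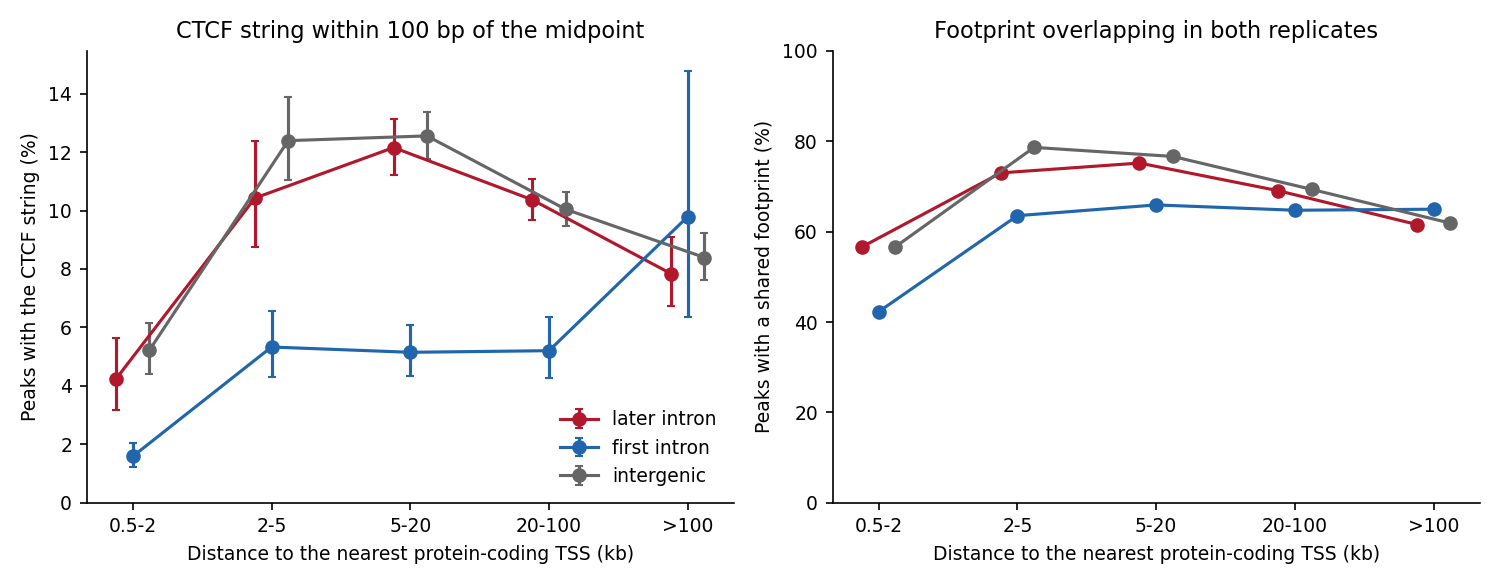
Share of shared peaks (%) with the CTCF string (left, with 95% Wilson intervals) and with a footprint overlapping in both replicates (right), by distance to the nearest protein-coding TSS (kb). Members follow the intergenic peaks, and first-intron peaks lie lower up to 100 kb.

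Members with the CTCF string were set apart in other measures. Footprints touched 93.2% of the 1640 matches in replicate 1, 97.7% in replicate 2 and 92.4% in both, while footprints covered 16.5% and 16.6% of the bases of the member windows. A shared footprint lay in 95.02% of the members with the string and 66.4% of those without. Of the replicate 1 peaks in later introns, 98.5% (97.8 to 99.0%) of those with the string were shared, against 73.8% (73.2 to 74.4%) of the others. Replicate 2 had more own later-intron peaks with the string, 2143 against 1651. When members were anchored on replicate 2, 10.4% of 15792 held it. Counted from replicate 2, the shared percentage of peaks with the string is thus lower. Median ranks in replicate 1 were nearly equal, 54.5 with the string and 53.7 without, and those in replicate 2 were 79.0 and 59.2.

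The other strings were searched in the same way. CAGGAAG (ETS) was in 19.5% of members and 6.42% of the windows outside peaks (10.0% of those with matched GC content), CAGCTG (E-box) in 21.3% and 7.64% (12.9%), and TGTGGTT (RUNX) in 9.91% and 4.90% (4.39%). CTTTGAA (TCF/LEF) was in 5.67% and 5.22% (3.19%), and the GATA string AGATAA in 7.86% and 13.0% (6.75%). For GATA the direction thus turned with the GC content of the windows. GGGCGGG (SP/KLF) was in 5.07% of members, 8.98% of first-intron peaks and 0.863% of windows (1.76%). TGGGAA (Ikaros) was in 16.01% and 17.1% (20.5%), TGANTCA (AP-1) in 6.74% and 5.98% (5.40%), and CCAATCA (NFY) in 2.02% and 2.21% (2.13%).

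Rare strings were in under 1% of members. These were TGACGTCA (CRE, 0.331%), AAGATGGCG (YY1, 0.300%), CTAAAAATA (MEF2, 0.362%), GTTAATNAT (HNF1, 0.169%), GCGCATGCG (NRF1, 0.162%) and TTGCGCAA (C/EBP, 0.0687%), with 0.107%, 0.142%, 0.539%, 0.693%, 0.0257% and 0.0141% in the windows. At matched GC content the windows held 0.190%, 0.225%, 0.124%, 0.184%, 0.0558% and 0.0166%, in the same order. For MEF2 the direction thus turned, and for HNF1 the matched share lay inside the interval of the members (0.116 to 0.245%). Footprints of both replicates touched 8.62% of the ETS, 16.1% of the RUNX, 12.1% of the E-box and 81.6% of the NRF1 matches. A match describes the letters of a window and shows no binding. Sites that depart from a string in any letter are missed, so a window without a match may still hold such a site.

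The replicates ranked members with different strings differently. The median log2 ratio of replicate 2 to replicate 1 strength was 0.84 for members with the CTCF string and -0.23 for those without, a difference of 1.07, from which the scale of each library cancels. Of the members with the string, 94.5% lay above the median ratio of all members. For members with a YY1 string the difference was 0.62 (48 members). It was the other way for E-box (-0.60), ETS (-0.54) and RUNX (-0.52) strings, where replicate 1 was relatively stronger. The same direction held for CRE (-0.64, 53 members), NRF1 (-0.56, 26 members) and SP/KLF (-0.40, 811 members) strings, among others. Differences were positive for Ikaros (0.23), HNF1 (0.34, 27 members) and C/EBP (0.10, 11 members) strings and for mostly repeat-masked members (0.50). Members in T lineage genes had -0.27 and members of genes with an open promoter -0.32.

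The differences of the named strings, other than C/EBP, had the same sign outside later introns. The CTCF difference was 0.98 in first-intron and 1.01 in intergenic peaks. The E-box difference was -0.37 and -0.52, the ETS difference -0.35 and -0.53, the RUNX difference -0.33 and -0.50, and the YY1 difference 0.40 (14 peaks) and 0.50. Peaks above the median GC content of members differed by -0.31 from the rest among members. The groups without ETS, RUNX or E-box strings include the members with CTCF. These are differences between 1 library of each animal, and whether they arise from the animals or from the preparation cannot be told apart.

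**Figure D5:**
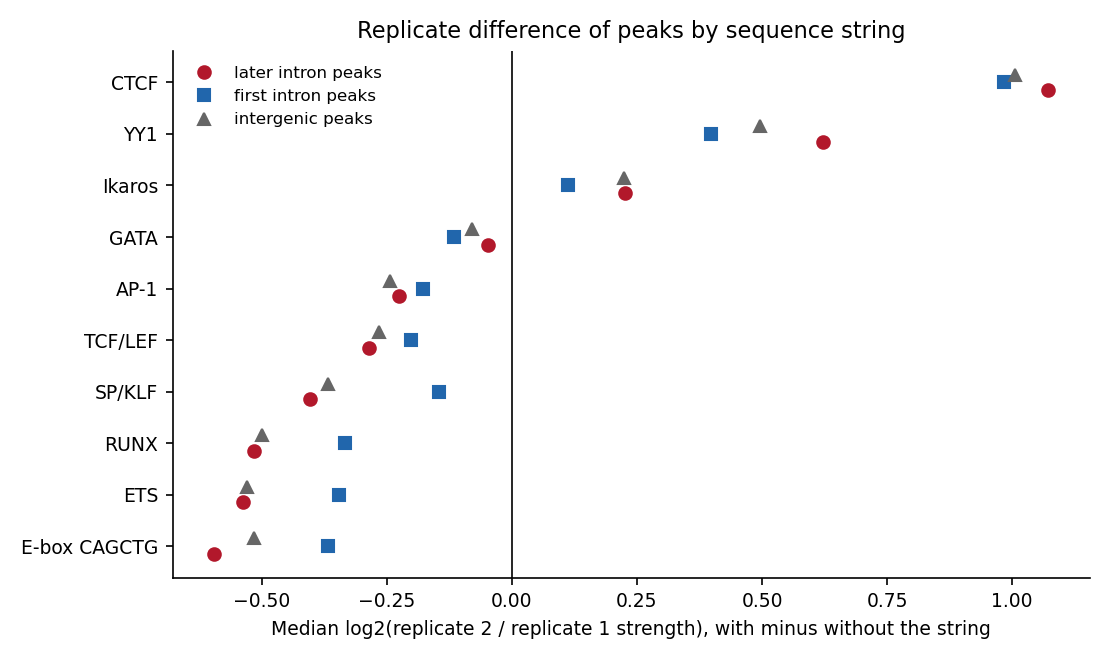
Median log2 ratio of replicate 2 to replicate 1 strength in peaks with a string minus that in peaks without it, for later-intron, first-intron and intergenic shared peaks. Values right of 0 mean relatively stronger in replicate 2: CTCF stands at 1.07 in members and the E-box at -0.60.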

How the data were processed

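The authors deposited, per the file listings deposited with each sample, 2 peak lists, a footprint list and a track of false discovery rates for each sample, each derived without pooling from the mm10 alignments of 1 sample. Each peak carries a signal value, which the authors deposited on 1 scale per library. The deposited q-value (false discovery rate) track lists bases under 0.05 and was used once. Not given in the sources used here are the aligner, both callers, the read depth and the mapping of CAST/EiJ alleles, whose effect was not tested, so strengths carry no counting error.

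From the longer lists, peaks were classed by midpoint, and densities used the bases of each class without gaps. Python 3.11.15, NumPy 2.4.6 and pandas 2.3.3 were used, and the classing, overlap and string search were tested on simulated data. No test between animals was possible. Genes and members were named by rule: the 12 genes with the most members, the 10 densest, the 10 highest-ranked members, the top 3 genes of each list, T lineage genes without a member, and the highest-ranked member of 8 T lineage genes. Further genes of a list named in the text were chosen after their values were seen, and a gene that the rule names is not reported here. The members and lists were chosen with earlier results of these data known. Lists held 100 T lineage and 149 other genes.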

Additional observations from a re-analysis of the deposited data

Results flagged for a closer look

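Of the 5134 later-intron peaks of replicate 1 that overlapped no replicate 2 peak, 985 (19.2%, 18.1 to 20.3%) nevertheless held a base that the false discovery rate track of replicate 2 lists under 0.05. This was singled out because the track was used in no comparison, and there are no control samples. Among those peaks the median of the lowest value was 0.00208.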

How the results depend on the processing

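Each result was recomputed under each alternative that bears on it, of which leaving out gene models named Gm and a number and using the starts of the comprehensive set were added after seeing the data. Of 158 values, 105 moved by less than the spread between replicates (counts: by less than 1.5 times) and 53 by more; the cause was not tested. The number of members was 10515 with the stricter list. The share of distal peaks in later introns was 29.6% with a 50% reciprocal overlap, 28.5% with the stricter list, 31.96% with a TSS window of 2000 bp, 29.5% with starts of all genes, 27.4% with the longest transcript by exon length, 26.3% with all protein-coding transcripts and 29.1% with the comprehensive set. Members per Mb were 19.1 with the reciprocal overlap and 16.3 with the stricter list. The density ratio to first introns was 0.638 with the reciprocal overlap, 0.804 with the wider window, 0.610 with all transcripts and 0.607 with the comprehensive set, and that to intergenic DNA 1.38 with the reciprocal overlap, 1.33 with the stricter list, 1.42 with the wider window and with starts of all genes, 1.36 with all transcripts and 1.38 with the comprehensive set. The log2 strength difference from intergenic peaks was -0.052 with the reciprocal overlap and -0.0766 with the stricter list. Under those 2 settings the shared footprint share was 76.9% and 81.6%, the CTCF share 12.7% and 12.1%, the open-host share 81.9% and 78.02%, and the T lineage median 4.08 and 3.73 per 100 kb. That median was 5.15 with the wider window and 4.76 with the comprehensive set. The longer CTCF string gave 7.68%.

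Using all peaks of a single replicate (leaving out the other), the number of members ran from 21143 to 24578, the share of distal peaks from 27.8% to 28.1%, the density from 32.7 to 38.1 per Mb, the ratios from 0.547 to 0.563 and from 1.30 to 1.32, and the log2 difference from intergenic peaks ran from 0.0866 to 0.0868, against -0.0352 for shared peaks. Footprints per peak ran from 2.15 to 2.29, shared footprints from 44.9% to 52.7%, the CTCF share from 7.81% to 8.72%, the open-host share from 81.8% to 82.9%, and the T lineage median from 7.91 to 8.31. Of 247 medians over genes (17 single lists, the 10 other lists together and all genes), 32 moved, among them T cell surface receptors from 1.87 to 0 (wider window; all transcripts) and thymic epithelial genes from 0 to 4.03 (genes with at least 5 kb of later intron). No paired analysis was possible because there is 1 group. With the depth unknown, a peak missing in 1 replicate was not detected there, which does not show that it is absent.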
